A study of Mus musculus with 6 samples.

Results

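The lipid-sensing nuclear receptors are described here in mouse cortex: the PPAR genes Ppara, Ppard and Pparg, the liver X receptor (LXR) genes Nr1h2 and Nr1h3, and their shared partners, the retinoid X receptor (RXR) genes Rxra, Rxrb and Rxrg. They were chosen by symbol, as 8 of the 23366 genes in the table of cortical RNA-seq values, and all 8 were found. The study names Pparg as upregulated in these data, which was known when the family was chosen. The cortex of 6 mice, which the study describes as frontal cortical tissue, was sequenced, each as 1 library: A1 to A3 were littermate controls and A4 to A6 were microglia-depleted mice at d10 post depletion. All mice had a C57BL/6 background, were given tamoxifen and carried CX3CR1-CreERT2+/-, a tamoxifen-inducible Cre recombinase under the promoter of the microglial fractalkine receptor. The depleted mice also carried iDTR+/-, a diphtheria toxin receptor at the Rosa26 locus that Cre switches on, and were later given diphtheria toxin. The control mice lacked iDTR. The study describes its mice as matched for age and sex. Whether control mice were given the toxin, and the age and sex of each sequenced mouse, are not given in the sources used here. The promoter is also active in other myeloid cells, and microglia repopulate the brain within days of their loss, so the d10 cortex was not without microglia.

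Nuclear receptors of this group are transcription factors that bind fats or cholesterol derivatives. Each PPAR or LXR protein binds DNA as a pair with an RXR protein, at repeats of the letters AGGTCA, and recruits corepressors without ligand and coactivators with it. PPARα drives fatty acid oxidation, PPARδ is the broadly expressed form in brain, and PPARγ drives fat storage in adipocytes and lipid handling in macrophages. LXRβ, encoded by Nr1h2, and LXRα, encoded by Nr1h3, sense oxysterols and drive cholesterol export through the transporter ABCA1 and its carrier apolipoprotein E. In brain, microglia use these receptors when they clear myelin and restrain inflammation, and oligodendrocytes express RXRγ.

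At this depth, 0 of the 8 receptor genes passed the test across all genes (limma on log2(FPKM + 1), adjusted p-value under 0.1), where 0.0278% of the 14385 genes tested did. Of the 8, 2 had an unadjusted p-value under 0.05, Pparg and Nr1h2, where 10.5% of all genes tested did. This count was 1 without A1, without A3 or with a correction for GC content, and 3 without A6. FPKM counts fragments per length of transcript and per depth of the library, so levels can be compared between genes. The largest difference was in Pparg, which averaged 2.13 times the control level in depleted cortex, with every depleted mouse above every control mouse. Nr1h2 and Ppard were lower in every depleted mouse than in every control mouse, by 19.5% and 14.1% of the control mean. The ranges of the other 5 genes overlapped between the groups. Over all genes tested, the groups did not overlap in 17.6%, in either direction.

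Pparg has several start sites, and the gene-level values do not tell them apart. The 250 bases before each of its 3 annotated start sites, and before the start of Nr1h2, are printed because these are the receptor genes with an unadjusted p-value under 0.05. The sequences are from RefSeq on GRCm38.p6, 5′ to 3′ on the strand of the gene, and capitals mark the receptor half-site AGGTCA and the GC box GGGCGG, on either strand.
Pparg start 1, chr6:115360894-115361143, plus strand: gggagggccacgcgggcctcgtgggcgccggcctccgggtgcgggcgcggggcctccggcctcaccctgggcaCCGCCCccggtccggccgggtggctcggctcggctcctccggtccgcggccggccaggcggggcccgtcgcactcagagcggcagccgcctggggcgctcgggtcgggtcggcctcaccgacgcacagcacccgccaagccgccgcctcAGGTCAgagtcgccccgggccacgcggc
Pparg start 2, chr6:115362099-115362348, plus strand: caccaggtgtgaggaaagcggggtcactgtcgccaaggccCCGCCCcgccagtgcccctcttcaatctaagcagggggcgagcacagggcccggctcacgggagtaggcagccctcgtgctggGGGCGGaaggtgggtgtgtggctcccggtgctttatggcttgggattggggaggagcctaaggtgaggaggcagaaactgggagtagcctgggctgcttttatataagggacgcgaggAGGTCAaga
Pparg start 3, chr6:115421816-115422065, plus strand: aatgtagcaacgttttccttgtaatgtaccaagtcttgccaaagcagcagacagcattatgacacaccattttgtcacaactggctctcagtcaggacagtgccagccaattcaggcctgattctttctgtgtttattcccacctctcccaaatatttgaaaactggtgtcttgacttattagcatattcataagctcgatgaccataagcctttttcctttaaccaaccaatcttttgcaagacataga
Nr1h2 start, chr7:44553966-44554215, minus strand: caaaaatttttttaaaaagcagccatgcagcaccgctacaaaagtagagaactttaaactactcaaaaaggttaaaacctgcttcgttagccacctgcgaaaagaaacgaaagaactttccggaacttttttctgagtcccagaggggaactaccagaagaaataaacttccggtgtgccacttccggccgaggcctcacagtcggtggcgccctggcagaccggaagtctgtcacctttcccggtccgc
The first window of Pparg held 1 half-site, ending 22 bases before the start, and 1 GC box. The second held 1 half-site, ending 3 bases before the start, and 2 GC boxes, and the third held neither. The Nr1h2 window held neither. Of 32851 such windows of all genes, 14% held a half-site and 32.7% a GC box on either strand. GC content was 82.4%, 63.6% and 40.8% in the Pparg windows and 48.4% in the Nr1h2 window, against a median of 52.4% over all windows. Windows were found for all 8 receptor genes, 14 in all. None of the 14 held AGGTCANAGGTCA, the spacing of PPAR and RXR pairs, which 0.0335% of all windows held on either strand. None held AGGTCANNNNAGGTCA, the spacing of LXR and RXR pairs, which 0.0152% held, nor TTTCNNTTTC, the core of the interferon-stimulated response element, which 2.98% held. A match to these letters is a description and was not tested for binding.

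The libraries differed in depth and in some marker genes. The spacing of low FPKM values gave 14.5 to 20.6 M fragments in the control mice and 7.15 to 13.7 M in the depleted mice, and a second spacing in A5 stood for 10.7 M. The markers of the labelled tissue were present, with neuronal sums of 3286 to 3995 FPKM and astrocyte sums of 1138 to 1283 FPKM in the 6 mice. The sum of 12 microglial markers was 121.0 to 146.9 FPKM in control and 128.1 to 165.9 in depleted mice. The sum of 12 type I interferon response genes was 31.9 to 43.5 FPKM in control mice, 80.6 and 84.1 in A6 and A5, and 427.7 in A4. Summed markers were lower in every depleted mouse for oligodendrocytes (2717 to 2813 against 3089 to 3361 FPKM), oligodendrocyte precursors (44.2 to 46.3 against 54.1 to 58.2), choroid plexus (122.6 to 138.9 against 243.4 to 418.9), meninges (47.4 to 63.7 against 66.7 to 75.7) and border macrophages (5.67 to 7.94 against 8.41 to 8.71). Those of endothelial cells were higher in every depleted mouse, at 62.0 to 68.2 against 53.1 to 60.5 FPKM. Single markers were mixed, with 2 higher and 4 lower of 6 border macrophage genes tested, and 8 higher and 2 lower of 10 endothelial genes. No border macrophage marker was above 3.23 FPKM in any mouse. Striatal and thalamic sums overlapped, at 388.0 to 436.7 against 364.1 to 449.2 and 61.9 to 78.1 against 57.1 to 65.5 FPKM, and hypothalamic markers summed to 490.0 in A3 and to at most 162.3 in the other mice. Xist was at 4.74 FPKM in A3 and at 30.9 to 46.7 in the other 5 mice, and 4 Y-linked genes summed to 5.56 FPKM in A4 and to at most 0.16 elsewhere. In bulk tissue, fewer cells of a type and less RNA per cell cannot be told apart.

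The level of the receptors spanned a wide range, with Rxrb at 29.4 times the FPKM of Ppara in control cortex. In control mice the order of mean FPKM was Rxrb, Nr1h2, Rxrg, Rxra, Ppard, Nr1h3, Pparg and Ppara. The ranges of Rxra and Ppard overlapped, as did those of Nr1h3 and Pparg, and every other gene in this order was above the next in all 3 mice. In depleted mice Pparg stood before Nr1h3 in the order, above it in 3 of 3 mice. There Rxrg and Rxra overlapped, as did Nr1h3 and Ppara. Over all 6 mice, Rxrb was above 79.2% and Nr1h2 above 70.6% of the genes tested by mean FPKM. Rxrg, Rxra and Ppard stood near the middle, above 48.2%, 44.3% and 41.3%. Pparg was above 20.6%, Nr1h3 above 14.6% and Ppara above 7.31% of the genes tested.

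**Figure D1:**
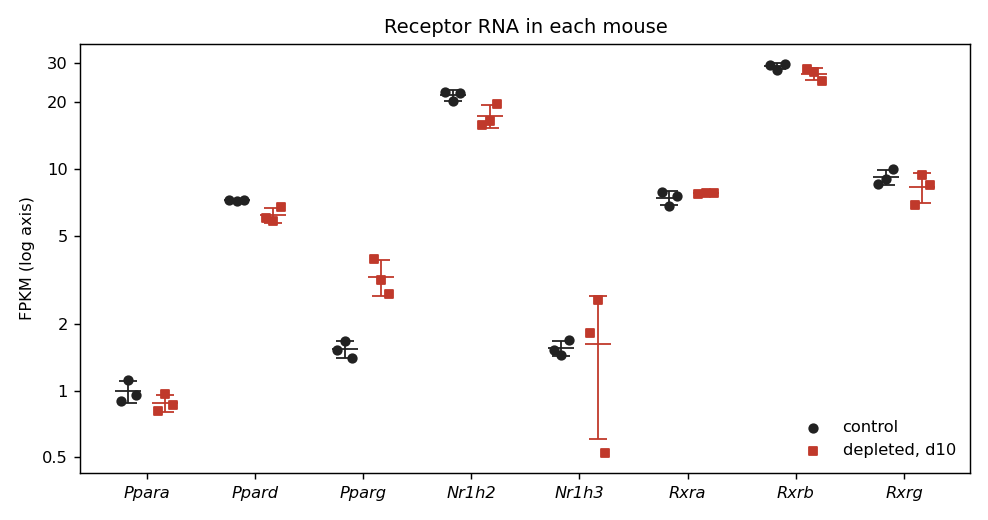
FPKM of the 8 receptor genes in each mouse on a log axis, with control mice as black circles, depleted mice as red squares, and the mean ± SD of 3 mice as horizontal lines and bars. Pparg lies between 1.40 and 1.68 in control and between 2.72 and 3.92 in depleted mice, while Nr1h3 in depleted mice spreads from 0.52 to 2.55.

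Pparg, on chromosome 6, encodes the receptor that turns on fat storage genes. Its FPKM was 1.53, 1.68 and 1.40 in A1, A2 and A3, and 3.92, 3.16 and 2.72 in A4, A5 and A6. The groups did not overlap, and the lowest depleted mouse was above the highest control mouse. The mean was 1.54 ± 0.140 in control and 3.27 ± 0.607 in depleted mice (SD, n = 3). The log2 fold change on log2(FPKM + 1) was 0.74 (SE 0.148, 95% interval 0.40 to 1.08), a scale that understates the change of a gene this low. Its unadjusted limma p-value of 0.000884 ranked it 40 of 14385 genes, and its adjusted p-value was 0.293. The family was chosen with the study's statement on Pparg known, so this p-value and rank are not independent of the choice. The exact two-sided permutation test gave p = 0.1, the smallest that 3 mice against 3 allow. About 47 to 114 fragments stood behind each value, for a counting error of 9.36 to 14.6% in each mouse. Without A4, the mouse with the highest Pparg value and the highest interferon sum, the log2 fold change was 0.63. The depleted mice had the same order for Pparg, the interferon sum and the endothelial sum, with A4 first and A6 last. The part of these in the difference was not tested. The fat cell marker Adipoq was at most 0.06 FPKM in any mouse, and 7 fat cell markers summed to 0.75 to 1.34 FPKM in control mice and to 3.53, 0.00 and 0.85 in A4, A5 and A6. These sums were near the floor, and A5 had the fewest fragments of the 6 libraries. The part of fat cells in the Pparg difference was not tested.

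Ppard, on chromosome 17, made up most of the PPAR RNA. It was at 7.23, 7.19 and 7.22 FPKM in the control mice and at 6.00, 5.81 and 6.77 in the depleted mice. The control values lay close together, and every depleted value was below them. Means were 7.21 ± 0.0208 and 6.19 ± 0.508 FPKM (SD, n = 3). The log2 fold change was -0.19 (95% interval -0.43 to 0.04, adjusted p = 0.539 in limma). The coefficient of variation of the control mice, 0.289%, was smaller than the counting error of 4.54 to 8.57% in each mouse, so that the narrow control spread is below what the depth resolves. With a correction for GC content the log2 fold change was -0.077.

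Ppara, on chromosome 15, was the lowest of the 8 in both groups. It was at 0.90, 1.12 and 0.95 FPKM in control and 0.81, 0.96 and 0.86 in depleted mice. The groups overlapped, with a log2 fold change of -0.084 (95% interval -0.42 to 0.25) and an adjusted p-value of 0.866 in limma.

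The summed PPAR level was 9.74 ± 0.221 FPKM in control and 10.3 ± 0.400 in depleted mice (SD, n = 3), and the groups overlapped (log2 ratio 0.086, exact two-sided permutation test, p = 0.2). With a correction for GC content the log2 ratio of the PPAR sum was 0.17, without overlap (exact permutation p = 0.1). Pparg accounted for 15.8, 16.8 and 14.6% of it in A1, A2 and A3, and for 36.5, 31.8 and 26.3% in A4, A5 and A6. The mean share was 15.8 ± 1.10% in control and 31.6 ± 5.13% in depleted mice, a difference of 15.8 percentage points (SD, n = 3, exact two-sided permutation test, p = 0.1). The share of Ppard was 74.1 ± 1.86% in control and 59.9 ± 4.91% in depleted mice, a difference of -14.1 points without overlap of the groups (exact permutation p = 0.1). The shares of a mouse add up to its whole PPAR sum, so a higher Pparg share by itself lowers the others. The lower Ppard share is therefore not a separate result. The share of Ppara was 10.2 ± 0.967% and 8.51 ± 1.07%, with overlap (exact permutation p = 0.2), and with the GC-content correction its difference was -2.27 points without overlap (exact permutation p = 0.1). These shares do not depend on a scaling factor of the library, and 0.1 is the smallest p-value that the design gives. With any 1 mouse left out, the difference in Pparg share was 13.3 to 18.4 points.

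**Figure D2:**
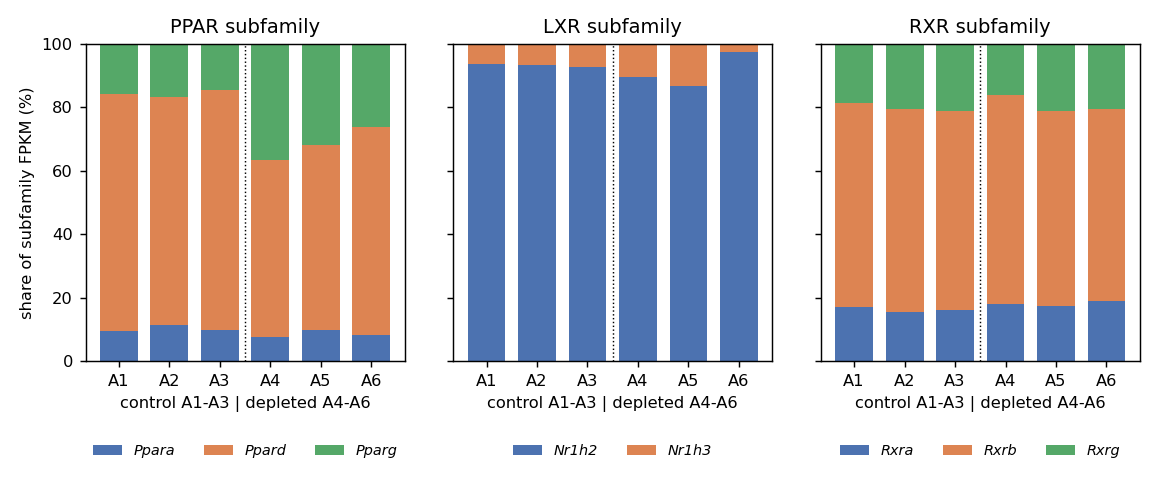
Share of each receptor gene in the summed FPKM of its subfamily, in percent, as stacked bars from 0 for each of the 6 mice, with a dotted line between control and depleted mice. The Pparg segment is 14.6 to 16.8% in control and 26.3 to 36.5% in depleted mice, and Nr1h2 makes up at least 86.6% of the LXR sum in every mouse.

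Nr1h2, on chromosome 7, encodes LXRβ, the main LXR in brain. Its FPKM was 22.3, 20.2 and 22.1 in the control mice and 15.8, 16.5 and 19.7 in the depleted mice. Every depleted value was below every control value, and A6 came nearest to the control range. The means were 21.5 ± 1.15 and 17.3 ± 2.07 FPKM (SD, n = 3). The log2 fold change was -0.30 (SE 0.102, 95% interval -0.54 to -0.07), with an unadjusted limma p-value of 0.0169 and an adjusted p-value of 0.396. With a correction for GC content the log2 fold change was -0.18. The oligodendrocyte, precursor and choroid plexus sums were also lower in every depleted mouse, and their part in the difference was not tested.

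Nr1h3, on chromosome 2, encodes LXRα, known from macrophages and liver. It was at 1.53, 1.44 and 1.69 FPKM in the control mice and at 1.82, 2.55 and 0.52 in the depleted mice. A4 and A5 were above the control range and A6 was below it. The log2 fold change was -0.042 (95% interval -0.69 to 0.61), with an adjusted p-value of 0.970 in limma, and it turned to 0.31 without A6. The value of A6 rested on about 11 fragments, a counting error of 29.6%, and the coefficient of variation was 8.15% in control and 63.1% in depleted mice. Its exons share 34 bases with Gm13783, a gene that has no row in the table, and no 75-base window of any of the 8 receptor genes occurs in another gene.

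The LXR sum followed Nr1h2. It was 23.8, 21.6 and 23.8 FPKM in control and 17.6, 19.0 and 20.2 in depleted mice, without overlap. The means were 23.1 ± 1.24 and 18.9 ± 1.29 FPKM, a log2 ratio of -0.28 (SD, n = 3, exact two-sided permutation test, p = 0.1). With a correction for GC content the log2 ratio of the LXR sum was -0.15 and the groups overlapped (exact permutation p = 0.2). The share of Nr1h3 in this sum was 6.73 ± 0.348% in control and 8.77 ± 5.58% in depleted mice (exact permutation p = 0.7).

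All RXR genes overlapped between the groups. Rxrb, on chromosome 17, had the highest level of the 8, at 29.5, 28.1 and 29.7 FPKM in control and 28.2, 27.5 and 25.0 in depleted mice. The groups overlapped in A2 and A4, and the log2 fold change was -0.11 (95% interval -0.29 to 0.07, adjusted p = 0.645 in limma). Rxra, on chromosome 2, was at 7.87, 6.84 and 7.54 FPKM in control and at 7.70, 7.79 and 7.78 in depleted mice. All depleted values lay within the control range, with a log2 fold change of 0.059 (95% interval -0.17 to 0.28, adjusted p = 0.859 in limma). Rxrg, on chromosome 1, the form of oligodendrocytes and striatal neurons, was at 8.59, 9.04 and 10 FPKM in control and at 6.89, 9.43 and 8.51 in depleted mice. A4 was lowest and A5 within the control range, with a log2 fold change of -0.15 (95% interval -0.44 to 0.14, adjusted p = 0.704 in limma). It was -0.033 without A4, -0.091 without A3 and -0.23 without A5. The intervals of Rxrb and Rxrg include the -0.19 of Ppard and that of Rxra reaches nearly as far, so equal levels were not shown.

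The RXR sum was 45.7 ± 1.64 FPKM in control and 42.9 ± 1.70 in depleted mice (SD, n = 3, exact two-sided permutation test, p = 0.2), with overlap. Within it, the share of Rxra was 17.1, 15.6 and 16% in control and 18, 17.4 and 18.8% in depleted mice. The groups did not overlap, and the mean share was 1.87 points higher in depleted mice (exact permutation p = 0.1). The shares of Rxrb and Rxrg overlapped, with exact permutation p-values of 0.6 and 0.7. All 8 receptors together summed to 75.6 to 80.6 FPKM in control and 71.1 to 73.7 in depleted mice, without overlap (exact permutation p = 0.1). The log2 ratio of the RXR sum was -0.091, and 0.022 with a correction for GC content (exact permutation p = 0.5). The sum of all 8 was not recalculated with that correction.

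Counted over the family, 1 of 8 receptor genes had an unadjusted limma p-value under 0.05 with depleted mice higher, where 4.79% of all genes tested did, and 1 of 8 with depleted mice lower, where 5.74% did. The groups did not overlap in 1 of 8 with depleted mice higher, against 8.21% of all genes, and in 2 of 8 with depleted mice lower, against 9.38%. With 8 genes these counts are small, and nothing particular to the family is read from them. The fitted difference was positive in 2 genes and negative in 6, with a median of -0.097 on the log2 scale, where the median of all genes tested was -0.0085 and 48.0% were higher.

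**Figure D3:**
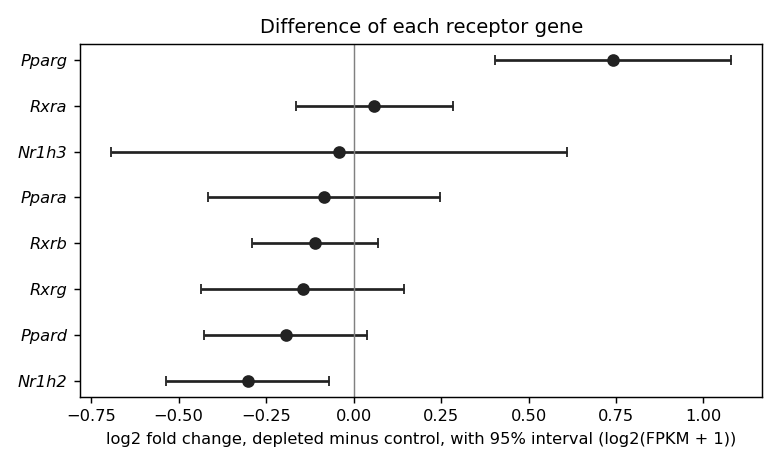
Log2 fold change of each receptor gene on log2(FPKM + 1), depleted minus control, as points with the 95% interval from limma and a vertical line at 0. The interval of Pparg runs from 0.40 to 1.08 and that of Nr1h2 from -0.54 to -0.07, and the intervals of the other 6 genes include 0.

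Genes that PPAR proteins are known to drive did not pass the test, 0 of 27 tested among 36 listed. At an unadjusted p-value under 0.05 there was 1 gene with depleted mice higher and 1 lower, where 4.79% and 5.74% of all genes were. By any amount, 7 were higher and 20 lower, where 48.0% of all genes were higher, and the median log2 fold change was -0.077. Cpt2, which completes the entry of fatty acids into mitochondria, was the gene with depleted mice lower, at 4.06, 3.05 and 4.77 against 3.03, 2.61 and 2.45 FPKM (log2 fold change -0.41, adjusted p = 0.438). Angptl4, an inhibitor of lipoprotein lipase, was at 1.96 ± 0.219 and 1.34 ± 0.892 FPKM (SD, n = 3), with overlap of the groups.

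The PPAR targets with the highest fold changes were of low level and varied widely among the depleted mice. The glycerol channel gene Aqp7 was at 1.67 FPKM in A4 and 0.47 and 0.58 in A5 and A6, against 0.16 to 0.56 in control mice. The fatty acid translocase gene Cd36 was at 2.08 FPKM in A4, 0.81 in A5 and 0.05 in A6, against 0.32 to 0.58. The insulin-responsive glucose transporter gene Slc2a4 was at 1.15, 0.10 and 1.13 FPKM, against 0.35 to 0.46. Fabp4, an adipocyte and macrophage fatty acid carrier, was too low to test, at 1.01 FPKM in A4, listed at 0 in A5 and A6, and at 0.08 to 0.23 in control mice. Each of these 4 genes was highest in A4 and none was above the control range in all 3 depleted mice. The common PPAR targets Pdk4, Cpt1a, Plin2 and Lpl, which set fuel choice, fatty acid entry, droplet coating and lipoprotein hydrolysis, had log2 fold changes of 0.0041, -0.13, -0.085 and -0.0078, with overlap of the groups.

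LXR target genes did not pass either, 0 of 15 tested among 19 listed, with 5 higher and 10 lower (48.0% of all genes were higher) and a median of -0.0094. Abca1, the cholesterol exporter, was at 3.78, 3.28 and 3.27 FPKM in control and 6.13, 4.24 and 3.87 in depleted mice. The groups did not overlap, with a log2 fold change of 0.35 (adjusted p = 0.492 in limma), which was 0.19 without A4. Lpcat3, which puts polyunsaturated fatty acids into phospholipids, was at 6.11, 5.64 and 5.73 FPKM in control and 7.49, 6.94 and 7.21 in depleted mice, also without overlap (log2 fold change 0.27, unadjusted p = 0.0257, adjusted p = 0.418 in limma). Apoc1, an apolipoprotein gene next to Apoe, was at 4.24 ± 1.46 and 5.22 ± 1.71 FPKM (SD, n = 3), with overlap. In the other direction, Smpdl3a, a phosphodiesterase gene, was at 15.2, 12.8 and 13.5 FPKM in control and 9.49, 11.1 and 11.1 in depleted mice (log2 fold change -0.36, unadjusted p = 0.0078, adjusted p = 0.378 in limma). Scd1, the stearoyl-CoA desaturase also made in oligodendrocytes, was lower without overlap, at 49.8 to 60.4 against 61.0 to 71.0 FPKM. Mertk, the receptor for engulfing dying cells, was at 10.3 ± 0.789 and 8.44 ± 1.26 FPKM (SD, n = 3), with overlap. In this list the groups did not overlap in 2 of 15 with depleted mice higher, against 8.21% of all genes tested. With depleted mice lower it was also 2 of 15, against 9.38%.

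The remaining canonical LXR targets were close to level. The exporter gene Abcg1 was at 14.7 ± 0.970 and 14.5 ± 2.04 FPKM, Srebf1, the master gene of fatty acid synthesis, at 11.7 ± 2.05 and 11.8 ± 3.56, and Apoe at 1116 ± 135 and 1108 ± 102 (SD, n = 3). Mylip, which degrades the LDL receptor, was at 4.69 ± 0.697 and 5.23 ± 1.31 FPKM. All 4 overlapped between the groups, and Abca1 and Abcg1, both exporters, had log2 fold changes of 0.35 and -0.026.

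The coactivators and corepressors were all measured, and 0 of 16 passed, 0 had an unadjusted p-value under 0.05, 10 were higher and 6 lower against 48.0% higher of all genes, and the median was 0.077. Gps2, a subunit of the corepressor complex, was at 16.9, 12.8 and 19.8 FPKM in the depleted mice against 13.4 to 14.6 in control mice. Ncoa3, a histone acetyltransferase coactivator, was at 5.22, 6.89 and 6.04 FPKM against 6.87 to 7.11, and overlapped in A5. The corepressor gene Nrip1 and the coactivator genes Ppargc1a, Crebbp and Ppargc1b had log2 fold changes of 0.13, 0.11, -0.024 and -0.019. Ncoa6 was the one member without overlap, at 10.4 to 10.5 FPKM in control and 10.6 to 11.4 in depleted mice, and is named after its values were seen. That made 1 of 16 with depleted mice higher, against 8.21% of all genes tested, and 0 of 16 lower, against 9.38%.

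RXR has further partners, of which 7 of 11 listed were tested and 0 passed or had an unadjusted p-value under 0.05. The retinoic acid receptor genes Rara, Rarb and Rarg had log2 fold changes of -0.15, -0.16 and 0.025. Rarb spread from 4.10 in A4 to 8.75 FPKM in A5, around a control range of 6.36 to 7.18. Thra, the thyroid hormone receptor with the highest level of the list, was at 228.0 ± 5.28 and 239.6 ± 25.6 FPKM (SD, n = 3), and the activity-induced receptors Nr4a1 and Nr4a2 had log2 fold changes of -0.057 and -0.089.

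Among enzymes and carriers that supply ligands, 0 of 19 tested of 26 listed passed, 1 had an unadjusted p-value under 0.05, with depleted mice lower, against 5.74% of all genes, 7 were higher and 12 lower against 48.0% higher of all genes, and the median was -0.073. Crabp1, a cellular retinoic acid carrier, was at 3.28, 1.84 and 2.12 FPKM in control and 1.65, 1.13 and 0.84 in depleted mice, without overlap (log2 fold change -0.62, unadjusted p = 0.0155, adjusted p = 0.396 in limma). Aldh1a2, the retinoic acid synthase of the meninges, was at 6.00, 5.03 and 5.93 FPKM against 5.50, 3.82 and 3.21, and overlapped in A4. It is also one of the 10 meningeal markers, whose sum was lower in every depleted mouse, and the part of the meninges in its difference was not tested. Cyp27a1, which makes an oxysterol ligand of LXR, was at 3.05 ± 0.688 and 2.29 ± 0.712 FPKM (SD, n = 3), with overlap. The prostaglandin synthase gene Ptgs2, the carrier gene Crabp2 and the retinol dehydrogenase gene Rdh10 had log2 fold changes of 0.15, 0.14 and 0.14, with overlap. Aldh1a1, Cyp26b1 and Dhcr7 were lower in every depleted mouse, with log2 fold changes of -0.15, -0.29 and -0.21, and are named after their values were seen. With Crabp1, the groups did not overlap in 4 of 19 with depleted mice lower, against 9.38% of all genes tested. With depleted mice higher it was 0 of 19, against 8.21%.

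**Figure D4:**
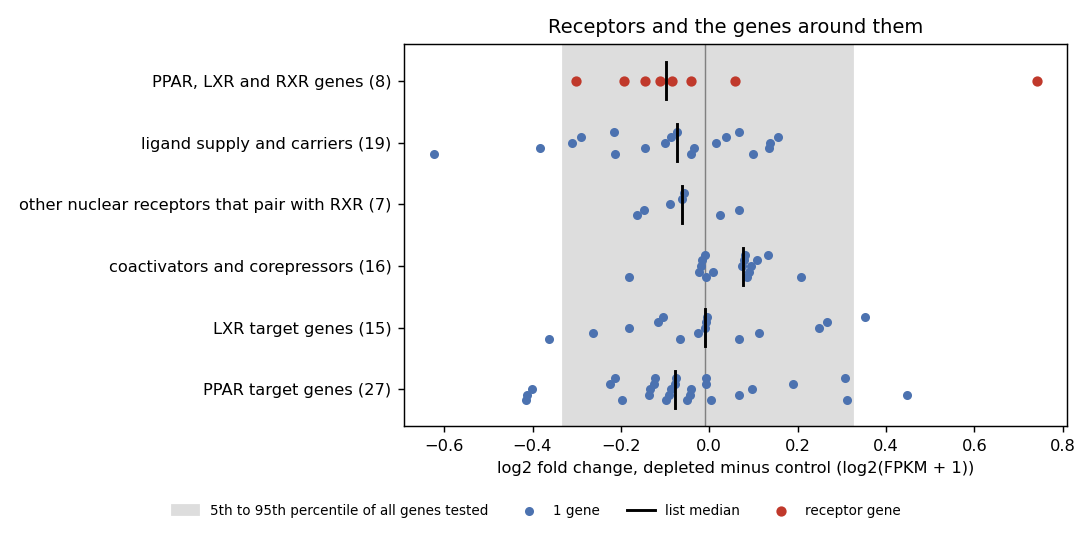
Log2 fold change of the receptor genes (red) and of each tested gene of the 5 lists (blue) on log2(FPKM + 1), with the number of genes tested in parentheses, list medians as black bars and the 5th to 95th percentile of all genes tested, from -0.33 to 0.33, in gray. Pparg at 0.74 lies outside the gray band, the list medians lie between -0.077 and 0.077, and the lowest point is Crabp1 at -0.62.

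Pparg and the Rosa26 locus are on the same chromosome, and only the depleted mice carried the iDTR insertion there. In the gene order of GRCm38, Pparg was 32 tested genes from Gt(ROSA)26Sor, the noncoding transcript of the locus. Gt(ROSA)26Sor was at 10.9, 10.6 and 7.25 FPKM in control and 8.88, 2.95 and 3.90 in depleted mice, with overlap in A4 (log2 fold change -0.86, SE 0.314, adjusted p = 0.418 in limma). Of the 31 genes between it and Pparg, 0 passed, 3 had an unadjusted p-value under 0.05, and the log2 fold changes ran from -0.34 to 0.21 with a median of -0.014. Of the 31 genes on its other side, 0 passed, 4 had an unadjusted p-value under 0.05, and the fold changes ran from -0.69 to 0.38. Over all genes tested, 10.5% had an unadjusted p-value under 0.05. The count of 7 over both sides was 2 without A1 and 3 without A2. Rad18 and Oxtr were highest at 0.38 and 0.32, and Lmcd1 and Gpr27 lowest at -0.69 and -0.54. The groups did not overlap, in either direction, in 25.8% of the genes between and 22.6% of those on the other side, against 17.6% of all genes tested. Effects of depletion and of the inserted chromosome segment on Pparg cannot be told apart in this design, as the control mice lacked iDTR.

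**Figure D5:**
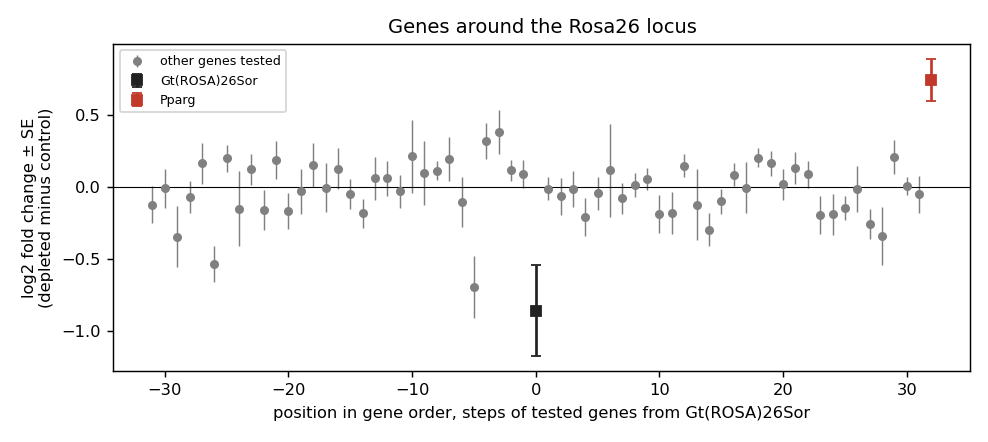
Log2 fold change ± SE (depleted minus control, log2(FPKM + 1)) of the tested genes around Gt(ROSA)26Sor, placed by their order on the chromosome in steps of 1 gene from that transcript. Gt(ROSA)26Sor (black) is at -0.86 and Pparg (red), 32 steps away, at 0.74, while the 31 genes between them lie between -0.34 and 0.21.

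The genes whose pattern over the 6 mice was most like each receptor were found by Pearson correlation of log2(FPKM + 1), among all genes tested. The 6 points share their libraries and their groups, so the values are descriptions. For Pparg they were Bnip2, Dnajb6 and Rsf1, at 0.995, 0.994 and 0.993. For Ppard they included Ubxn11 and Bex1, at 0.994 and 0.992, and for Ppara they were Cnep1r1, Hecw2 and 9630033F20Rik, at 0.998, 0.990 and 0.990. For Nr1h2 they were Tprn, Zfp941 and Sgsm2, at 0.999, 0.994 and 0.989, and for Nr1h3 Mfap1b, Hist2h2be and Hgsnat, at 0.995, 0.991 and 0.987. For Rxra they were Nup133, Atp5g3 and Ablim3, at 0.976, 0.975 and 0.967. For Rxrb they were F13a1, Mzt2 and AI837181, at 0.995, 0.993 and 0.990, and for Rxrg Lgi2, Stard3nl and Dnalc4, at 0.990, 0.987 and 0.987. None of these genes was in the 5 lists, and F13a1 is one of the 7 border macrophage markers.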

How the data were processed

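RNA of cortical tissue was sequenced as poly(A)-selected libraries with 75 bp paired-end reads. The authors aligned reads with TopHat and quantified known transcripts with RSEM, and deposited FPKM values per gene, TMM-normalized and given to 2 decimals. The submitters' processing notes name mm9, TopHat, RSEM and DESeq, without versions. Raw counts were not used here, so the authors' count test was not repeated. By that test the study reports many more differentially expressed genes than passed here.

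FPKM values of 14385 genes with a mean of at least 0.5 were taken to log2(FPKM + 1) and compared with limma 3.58.1 in R 4.3.3 (eBayes with trend), with Benjamini-Hochberg adjustment over all of them and a threshold of 0.1. The test for single values, sums and shares was the exact two-sided permutation test, which cannot go below 0.1. Since the labels do not name litters, p-values measure the spread between these mice. Fragment numbers came from the spacing of low values in 1813 genes with 1 transcript of 400 to 1500 bases. Counting errors cover counting only. Gene order was from RefSeq on GRCm38.p6. Transcript lengths were from GENCODE M21 on GRCm38, with 23005 of 23366 genes matched, 1273 of them by synonym and the others by symbol. Neither was used as coordinates of the files. On simulated data for depleted against control, with a log2 change of 1 put into 200 of 14385 genes, limma called 179 of these and 25 others. The changed genes were drawn above a minimum level that Ppara and Nr1h3 do not reach, with the same spread in every mouse. More genes were changed than passed in the data, which eases the adjustment, so these counts do not give the power for the receptor genes.

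The receptor genes and the lists were chosen with earlier results of these data known. The genes named were all 8 receptors, the 3 highest and 3 lowest fold changes of each list, canonical targets (Abca1, Abcg1, Srebf1, Apoe, Mylip, Pdk4, Angptl4, Cpt1a, Plin2, Cd36, Fabp4, Lpl), the 3 genes most like each receptor, the 2 highest and 2 lowest around Rosa26, and sex-linked genes. Some genes that these rules name are not reported here. The alternatives tried were array weights, robust eBayes and eBayes without trend, other scaling (TPM, quantile normalization, median of ratios), a GC-content correction, filters at 1 FPKM or none, a pseudocount of 0.1, the threshold 0.05 and leaving out each mouse. Other steps used pandas 2.3.3, numpy 2.4.6, scipy 1.17.1 and matplotlib 3.10.9 in Python 3.11.15.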

Additional observations from a re-analysis of the deposited data

How the results depend on the processing

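The receptor genes, the 5 lists and the genes around Rosa26 had 0 genes called under every alternative. Over all genes, 4 passed in the main limma fit used above, 20 with array weights, 29 without A5, 8 without A6, 2 without A1 and 2 with eBayes without trend. The adjusted p-value of Pparg ran from 0.180 to 0.892 and its log2 fold change from 0.63 to 1.03. Ppara could not be fitted at a minimum mean of 1 FPKM. Depth limits the low genes most: the counting error in 1 mouse reached 20.7% for Ppara and 29.6% for Nr1h3. No paired analysis was possible because the labels name no litters or pairs.

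Over the settings that can alter a fold change, 93 receptor differences kept their direction and 3 reversed. The lowest adjusted p-value of a receptor gene under any alternative was 0.180, so staying on one side of the threshold says little. With the GC-content correction, log2 values turned to 0.039 for Nr1h3, 0.030 for Rxrb, 0.022 for the RXR sum, 0.10 for Apoe, 0.012 for Nr4a1, -0.030 for Pdk4, 0.064 for Ppargc1b and 0.086 for Srebf1, and the Rxrb share to 0.46 points. With array weights, they turned to -0.019 for Crabp2, -0.059 for Pdk4, 0.034 for Ppargc1b and -0.050 for Rarg. With array weights Rxrg was at -0.069. The cause was not tested.

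Leaving out each mouse in turn gave log2 fold changes of -0.30 to 0.31 for Nr1h3, the highest without A6, -0.12 to -0.037 for Ppara, 0.0088 to 0.098 for Rxra and -0.14 to -0.061 for Rxrb. For the LXR targets it gave 0.19 to 0.46 for Abca1, -0.13 to 0.028 for Abcg1, -0.0023 to 0.50 for Apoc1, -0.093 to 0.081 for Apoe, -0.0057 to 0.30 for Mylip and -0.22 to 0.12 for Srebf1. For the PPAR targets it gave -0.076 to 0.70 for Cd36, -0.051 to 0.077 for Lpl, -0.12 to 0.14 for Pdk4 and -0.26 to 0.031 for Plin2. For the other lists it gave -0.17 to 0.37 for Crabp2, -0.077 to 0.066 for Crebbp, -0.33 to 0.11 for Nr4a1, -0.18 to 0.019 for Nr4a2, -0.076 to 0.092 for Ppargc1b, -0.41 to 0.059 for Rarb, -0.054 to 0.15 for Rarg and -0.020 to 0.12 for Thra. The difference in share ran from -5.13 to 0.27 points for Nr1h2, from -0.27 to 5.13 for Nr1h3, from -2.62 to 0.039 for Rxrb and from -1.79 to 0.70 for Rxrg.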
